A study of Mus musculus with 4 samples.

Results

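The genes described are the nuclear and mitochondrially encoded subunits of the respiratory chain and ATP synthase in the mouse HT22 line. They were chosen by a rule of names, set with earlier results of these data known. It took protein-coding genes whose symbols start with Nduf, Sdh, Uqcr, Cox4 to Cox8, Atp5 or mt-. This gave 107 of the 20089 genes in the deposited tables, namely 81 nuclear subunits, 13 mitochondrially encoded subunits and 13 assembly or other factors, which are given apart. A further 4 annotated identifiers (Cox4i2, Cox8b, Cox8c and a second one for Atp5o) had no row in the tables used here and were not analysed. HT22 is an immortalised mouse hippocampal line, labelled as C57BL/6 in strain and as hippocampal neurons in tissue. All 4 cultures had been infected with lentivirus, either a control negative virus or one aimed at Neat1, a nuclear long noncoding RNA. Each kind of cell was kept in DMEM/F12 medium with 10% FBS (normal culture) or without oxygen and glucose (OGD). One RNA-seq library was made for each of the 4 groups, so no difference below has a replicate check and no test was run.

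The respiratory chain passes electrons from NADH (complex I) and succinate (complex II) through complex III and cytochrome c to oxygen at complex IV, and ATP synthase (complex V) uses the proton gradient this builds. Complexes I, III, IV and V are assembled from proteins of 2 genomes, and complex II from nuclear genes only. Mitochondrial genes are read from both strands of a small circle as long RNAs that are cut into single messages, while each nuclear subunit has a promoter of its own. Neurons draw most of their ATP from this chain.

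Where 4 values follow each other they stand for the libraries of control cells and knockdown cells in normal culture, then of control cells and knockdown cells under OGD. Ratios are on the log2 scale and compare CPM (counts scaled by library size and TMM factor), to which 0.5 was added. A gene entered a comparison if 1 of its libraries had 20 reads or more. Genes counted as higher or lower are those whose difference reached 2-fold, which is a rule of size. Where a gene's OGD libraries lie apart from its normal ones, how many of all genes do so was not counted. Folds, and the 95% intervals in brackets, were computed without the added 0.5 CPM and cover counting error only.

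The libraries held 18596774, 20764430, 17232866 and 19066951 reads. Neat1 itself had 3789, 2592, 1144 and 824 reads, a log2 ratio of -0.68 for knockdown in normal culture and -0.81 under OGD. The tissue label was checked against 40 markers of neurons, glia, endothelium and blood, whose reads made up 0.294%, 0.010%, 0.015% and 0.043% of the libraries. The 15 general neuron markers took 45266, 714, 1308 and 4450 of these reads. Oligodendrocyte markers held 4486, 103, 144 and 1370 reads, astrocyte markers 1661, 92, 139 and 947, and blood markers 856, 6, 7 and 98. Hippocampal pyramidal neuron markers held 1822, 778, 671 and 973 reads, and endothelial ones 542, 171, 89 and 141. Microglial markers went another way, with 103, 173, 151 and 205 reads. In the pooled markers control cells in normal culture stood apart from the other libraries, but most of the markers past the floor differed by 2-fold in each of the 4 comparisons. Of those past the floor 22 of 31 were lower (median log2 ratio -3.93) under OGD in control cells, and 25 of 30 were higher (2.74) under OGD in knockdown cells. With knockdown 26 of 31 were lower (-4.80) in normal culture and 25 of 30 higher (2.05) under OGD. Rows of ribosomal RNA repeats took 1.81%, 4.32%, 4.78% and 0.341% of reads, and small nuclear RNAs held 383, 685, 346 and 11 reads. The part of these differences in the results was not tested. In bulk RNA, fewer cells of a kind and less RNA per cell cannot be told apart.

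Promoters are shown for 3 subunits at the ends of the OGD response: Ndufv3 and Cox7a1, the highest nuclear members by the rule for named genes, and Ndufb2, the lowest of complex I. Each stretch holds the 250 bases before the RefSeq start (GRCm38.p6), 5′ to 3′ on the gene's strand. Capitals mark the core of the hypoxia response element GCGTG, or its reverse complement CACGC.
Ndufv3: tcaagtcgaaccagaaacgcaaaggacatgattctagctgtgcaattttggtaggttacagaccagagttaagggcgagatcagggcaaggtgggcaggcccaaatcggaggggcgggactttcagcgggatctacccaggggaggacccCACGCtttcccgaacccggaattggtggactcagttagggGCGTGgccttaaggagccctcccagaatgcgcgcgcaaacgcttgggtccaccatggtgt
Cox7a1: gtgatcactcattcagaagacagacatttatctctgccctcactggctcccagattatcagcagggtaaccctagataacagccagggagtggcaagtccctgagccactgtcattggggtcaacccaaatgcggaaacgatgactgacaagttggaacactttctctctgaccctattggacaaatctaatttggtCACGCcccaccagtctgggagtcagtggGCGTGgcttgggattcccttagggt
Ndufb2: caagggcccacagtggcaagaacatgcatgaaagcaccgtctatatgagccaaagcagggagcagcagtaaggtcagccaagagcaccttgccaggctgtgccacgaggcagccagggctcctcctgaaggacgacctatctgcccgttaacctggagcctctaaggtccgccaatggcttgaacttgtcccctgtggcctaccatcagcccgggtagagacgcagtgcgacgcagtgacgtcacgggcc
They lie at chr17:31519865-31520114, chr7:30183921-30184170 and chr6:39592315-39592564, all on the plus strand. The Ndufv3 and Cox7a1 stretches hold 2 GCGTG cores each, 1 on either strand. The Ndufb2 stretch holds no match to any of the 4 cores searched. These 3 stretches do not stand for the set. In the promoters counted below, GCGTG was in 53.5% of those of subunits and 32.4% of all. Subunits with GCGTG had lower OGD medians (-0.36 and -0.68) than those without (-0.21 and -0.36). For the core ACGTG the order was the other way. The GENCODE start of Cox7a1 lies slightly upstream of the RefSeq start, so the last bases of its stretch fall in the first exon by that annotation.

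Per unit length, mitochondrially encoded messages had the highest median of the groups of members. In control cells in normal culture their median was 3260 FPKM (fragments scaled by gene length and library size), against 620 for nuclear subunits of complex V, 563 for complex IV, 463 for complex III, 226 for complex I and 157 for complex II. Assembly factors had a median of 14.4 FPKM. The same order held for knockdown cells in normal culture. Under OGD the mitochondrial medians were 1507 and 1577 FPKM. There complex IV stood above complex V in both libraries, and in control cells complex III did so too, by a few FPKM. The highest nuclear level in every library was that of Atp5b, the catalytic beta subunit of ATP synthase, with 3123, 2834, 2626 and 2696 FPKM, above the mitochondrial median in both OGD libraries. The lowest mitochondrial message, mt-Nd4l, was listed at 1114, 930, 426 and 447 FPKM. FPKM of very short genes depends strongly on the length taken, as for mt-Atp8, listed at 17978, 13274, 11383 and 18835 FPKM.

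Under OGD the RNA of many mitochondrially encoded subunits was lower, by more than that of nuclear ones. The 13 mitochondrial messages took 3.33% and 3.18% of reads in normal culture and 1.74% and 1.90% under OGD. Nuclear subunits took 1.91% and 1.93% in normal culture and 1.41% and 1.46% under OGD. Reads of mitochondrial over nuclear subunits, a ratio that no scaling between libraries can change, were 1.75, 1.65, 1.24 and 1.30. Both OGD libraries lay below both normal libraries in this ratio. In summed FPKM, which weights short messages more, the ratios were 1.63, 1.47, 1.26 and 1.50, so in knockdown cells the OGD library did not lie below the normal one. This sum rests heavily on the short mt-Atp8. It held 17978, 13274, 11383 and 18835 of the 64090, 57090, 35410 and 43996 mitochondrial FPKM. The ratio without mt-Atp8 was not computed.

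In log2 ratios, the median of the 13 mitochondrial messages under OGD was -0.82 in control cells, where 6 were lower, and -1.30 in knockdown cells, where 9 were lower. Among all genes past the floor 22.2% and 16.9% were lower, with medians of -0.11 and -0.0020. The median of 78 nuclear subunits was -0.24 in control cells and -0.45 in knockdown cells. The 2 OGD comparisons have no library in common.

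The mitochondrial messages did not move as a block. All 7 NADH dehydrogenase (complex I) subunits, cytochrome b of complex III and mt-Co2 lay below 0 in both OGD comparisons. mt-Nd1, a membrane core subunit of complex I, held 78814, 83137, 19284 and 22415 reads. Both OGD libraries were far below both normal ones, 3.21-fold lower (3.16 to 3.26) in control cells and 3.38-fold lower (3.33 to 3.43) in knockdown cells. mt-Cytb, the core of complex III that carries its quinone sites, held 94317, 88680, 28541 and 30397 reads, log2 ratios of -1.37 and -1.41. mt-Co2, which takes electrons from cytochrome c, held 66413, 73306, 23176 and 27204 reads, at -1.17 and -1.30. mt-Nd2 held 50142, 58517, 17823 and 18504 reads, at -1.14 and -1.53. In each of these 4, as in the other complex I messages below, both OGD libraries held fewer reads than both normal ones.

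mt-Co1, the catalytic subunit of complex IV, held 133772, 141494, 91933 and 130624 reads, with log2 ratios of -0.19 and 0.02. mt-Co3, another core subunit of complex IV, stood at 0.21 in control cells and -0.25 in knockdown cells. mt-Atp6, the membrane subunit of ATP synthase that forms its proton channel, stood at -0.11 and 0.07, and mt-Atp8, which shares 43 bases with it on one message, at -0.50 and 0.21. Over these 4 genes the median OGD ratio was -0.15 and 0.04, and over the other 9 it was -1.15 and -1.41. The split into 4 and 9 was made after the values were seen and is a description. In control cells the sets overlapped, with the lowest of the 4 at -0.50 and the highest of the 9 at -0.44. In knockdown cells they did not (-0.25 and -1.17). Within a library mt-Co1 had 1.70, 1.70, 4.77 and 5.83 times the reads of mt-Nd1. mt-Atp6 had 0.651, 0.678, 1.94 and 2.41 times the reads of mt-Nd1. In genome order the 9 genes are not adjacent, since mt-Co2 lies between mt-Co1 and mt-Atp8.

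**Figure D1:**
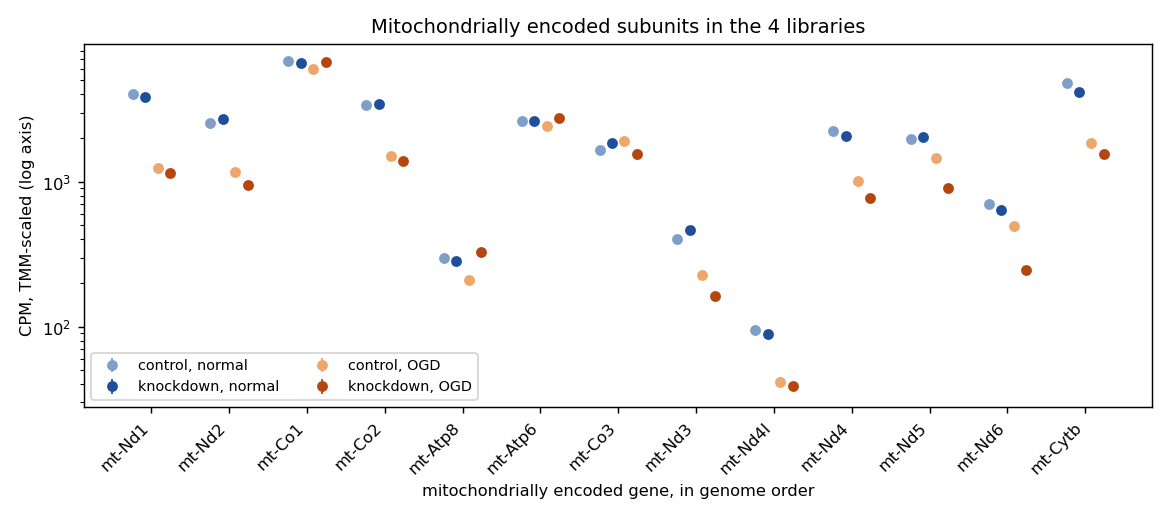
CPM (TMM-scaled, log axis) of the 13 mitochondrially encoded genes in genome order, 1 point per library with its 95% counting interval, which is mostly smaller than the point. OGD libraries lie below normal ones for 9 genes. For mt-Co1, mt-Co3, mt-Atp6 and mt-Atp8 the median log2 ratios are -0.15 and 0.04. In control cells mt-Atp8 is at -0.50, and the highest of the 9 genes is at -0.44.

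The remaining complex I messages differed in how far they moved in each kind of cell. mt-Nd4 held 44221, 44062, 15616 and 15051 reads, and mt-Nd4l, whose gene overlaps its start, held 1849, 1902, 636 and 759. Their log2 ratios were -1.15 and -1.42 for mt-Nd4, and -1.18 in both kinds of cell for mt-Nd4l. mt-Nd3 stood at -0.82 and -1.51. The neighbours mt-Nd5 and mt-Nd6, on opposite strands, lay closer to 0 in control cells (-0.44 and -0.50) than in knockdown cells (-1.17 and -1.37). mt-Nd6, the one protein gene on the light strand, held 13702, 13798, 7588 and 4854 reads. The sources used here do not say if counting used strand, and reads of mt-Nd6 cannot be told apart from RNA of the opposite strand.

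The 2 mitochondrial ribosomal RNAs, which come from the start of the heavy-strand transcript, did not follow the messages. They summed to 717, 1338, 2404 and 1286 CPM, so they were higher under OGD in control cells and slightly below the normal library in knockdown cells. Their reads were 2.27%, 4.35%, 12.3% and 6.97% of those of the 13 messages. In each kind of cell this share was higher under OGD, while the nuclear ribosomal repeats were highest in control cells under OGD and lowest in knockdown cells under OGD.

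Some mitochondrial genes have near-identical copies with rows of their own, and the sources used here do not say how reads that match both were counted. For 7 of the 13 genes a row of a pseudogene on chromosome 1 (between 24611535 and 24616197, GRCm38) has a near-identical sequence, such as Gm28661 for mt-Co2, identical over 681 bases, and Gm10925 for mt-Atp6, identical over 678. Gm28661 held between 98.9% and 100.3% as many reads as mt-Co2 in the 4 libraries. These 7 rows took 1.07%, 1.09%, 0.713% and 0.790% of all reads. Reads of these genes and their copies cannot be told apart. The 6 mitochondrial genes without such a row had medians of -0.82 and -1.39 under OGD, close to those of all 13. Single genes among these 6 ranged from -1.68 to -0.44 in control cells and from -1.76 to 0.21 in knockdown cells. Their reads were 1.51%, 1.41%, 0.574% and 0.525% of the libraries, against 3.33%, 3.18%, 1.74% and 1.90% for all 13. mt-Co1, mt-Co3 and mt-Atp6 are among the 7 genes with such a row, as are mt-Co2, mt-Nd3, mt-Nd4 and mt-Nd4l. mt-Atp8 has no such row, but its gene lies between those of mt-Co2 and mt-Atp6, which have one. Copies without a row were not searched for, so mt-Atp8 may share reads with one. The part of the copies in the split of the mitochondrial messages was not tested.

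Nuclear subunits moved less and mostly downward under OGD. In control cells 56 of the 78 past the floor lay below 0, 3 were higher by 2-fold and 0 were lower, against 9.36% and 22.2% of all genes. In knockdown cells 65 lay below 0, 3 were higher and 10 lower, against 19.1% and 16.9%. Of all genes past the floor, 7815 of 14101 lay below 0 in control cells and 7042 of 14071 in knockdown cells. Signs were the same in 65 subunits, 54 below 0 and 11 above, and 13 had opposite signs. How many of all genes had the same sign was not counted. The contrast of 0 with 10 lower subunits depends on the scaling: by total counts, which shift every log2 ratio of the control cells by -0.23, 8 subunits were lower in control cells and 10 in knockdown cells, with medians of -0.48 and -0.46. The median of all genes in control cells was then -0.34. The 3 members under the floor were Cox6b2 and Cox7b2, testis-type isoforms with at most 3 reads, and Ndufa4l2, a hypoxia-responsive relative of Ndufa4, with 7, 0, 9 and 8 reads. All genes include many with few reads, whose ratios scatter more. With a floor of 100 reads, 1 of 76 subunits was higher and 0 lower in control cells, against 1043 and 1923 of 11165 genes. In knockdown cells 2 of 77 were then higher and 10 lower, against 1635 and 1606 of 11020.

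**Figure D2:**
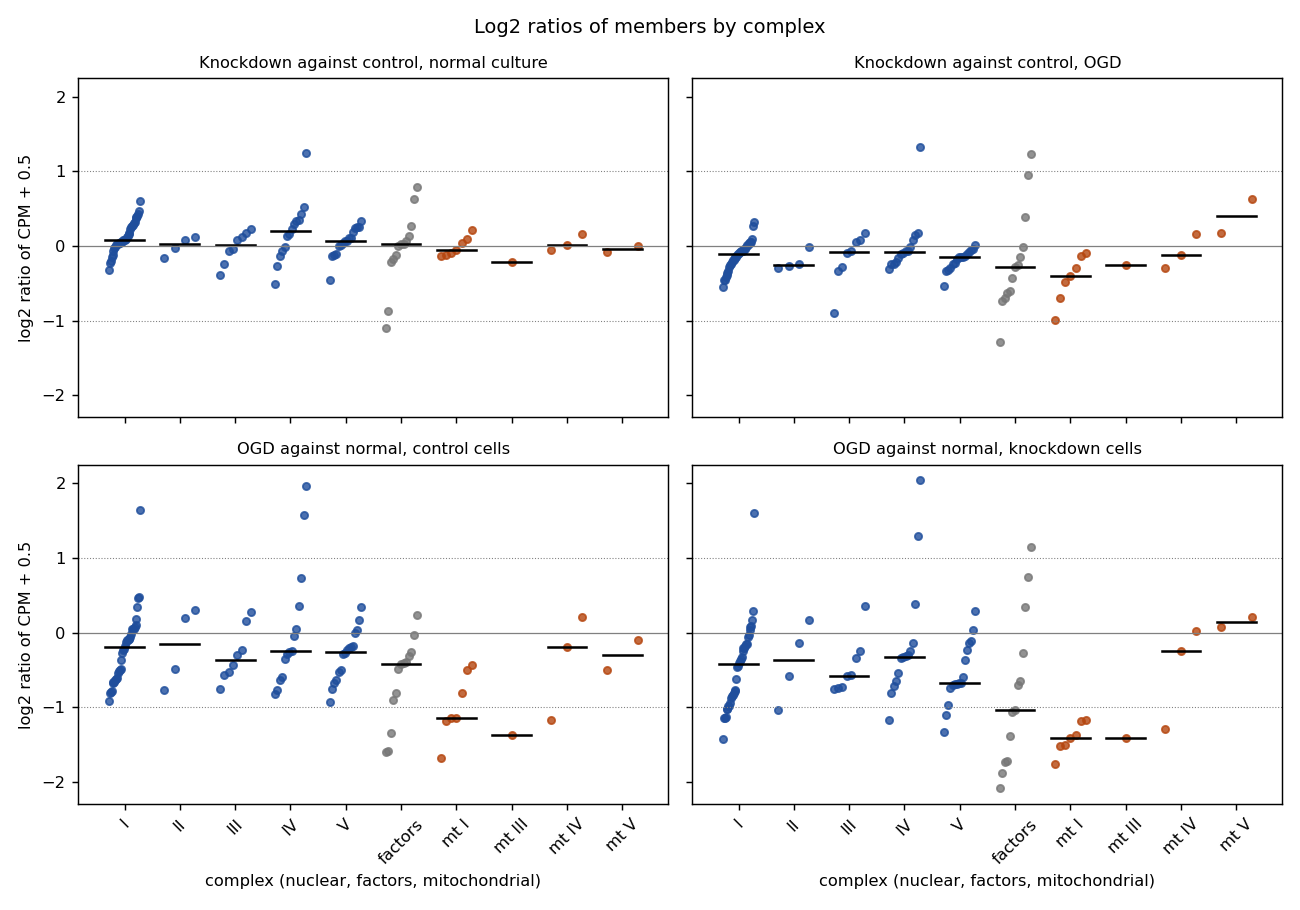
Log2 ratios of CPM + 0.5 (y axis) for each member past the floor in the 4 comparisons, grouped by nuclear complex, assembly and other factors, and mitochondrial (mt) complex. Bars are medians, dotted lines mark 2-fold. The OGD panels show nuclear medians between -0.15 and -0.68, and mt complex I medians of -1.14 and -1.42.

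By complex, the OGD medians of nuclear subunits in control and knockdown cells were -0.20 and -0.42 for complex I, -0.15 and -0.37 for complex II, -0.37 and -0.58 for complex III, -0.25 and -0.33 for complex IV, and -0.26 and -0.68 for complex V. Subunits within a complex had an SD of 0.35 to 0.85 in control cells and 0.38 to 0.86 in knockdown cells, and whether the complexes differ was not tested. Medians of the mitochondrial genes were -1.14 and -1.42 for complex I, -0.19 and -0.25 for complex IV, and -0.30 and 0.14 for complex V. Mitochondrial over nuclear reads of complex I were 2.44, 2.24, 1.29 and 1.05, those of complex IV were 2.74, 2.70, 2.59 and 2.83, and those of complex V 0.436, 0.424, 0.437 and 0.579. In complex I both OGD libraries lay below both normal ones, in complex IV the libraries overlapped, and in complex V knockdown cells under OGD were highest.

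In complex I, Ndufv3 stood alone. It encodes a small accessory subunit of the NADH-oxidising flavoprotein module, and held 1305, 1398, 3220 and 3880 reads. Both OGD libraries were more than 2-fold above both normal ones, 3.14-fold higher (2.95 to 3.36) in control cells and 3.04-fold (2.86 to 3.24) in knockdown cells. It made up 1.36%, 1.23%, 4.79% and 4.93% of the reads of nuclear complex I. On the deposited FPKM scale the gene stood at 200, 197, 409 and 509, a smaller difference in control cells. Its partners in the module showed no such change, with log2 ratios of -0.09 and -0.18 for Ndufv1, which binds NADH and flavin, and 0.05 and -0.06 for Ndufv2, an iron-sulfur subunit.

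At the other end of complex I stood accessory subunits, most of them of the membrane arm. Ndufb2 held 1208, 1373, 498 and 460 reads, 1.90-fold lower (1.71 to 2.12) under OGD in control cells and 2.72-fold lower (2.45 to 3.03) in knockdown cells. Its OGD libraries lay below its normal ones without overlap. Ndufb7 was at -0.80 and -1.13, Ndufb4 at -0.79 and -1.15, Ndufc1 at -0.62 and -1.15, Ndufa11 at -0.66 and -1.03, and Ndufa12 at -0.54 and -1.03. These 6 were the complex I subunits lower by 2-fold in knockdown cells. Ndufb4 and Ndufa12 have near-identical copies in the tables, so part of their reads is uncertain. Core subunits of the peripheral arm lay nearer to 0 on the log2 scale in some cases, with Ndufs1 at 0.095 and -0.027, Ndufs3 at 0.051 and 0.080, and Ndufv2 at 0.049 and -0.055. Ndufs7, another core subunit, was at -0.78 and -0.88.

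The subunits of complex II did not move together. Sdhb, the iron-sulfur subunit, held 4584, 4909, 2103 and 2174 reads, 1.71-fold lower (1.62 to 1.80) and 2.06-fold lower (1.96 to 2.17) under OGD. Sdhd, a membrane anchor, held 4075, 3977, 2273 and 2406 reads, at -0.49 and -0.59. Sdha, the flavoprotein that oxidises succinate, held 1898, 2262, 1841 and 2322 reads, at 0.30 and 0.17, and Sdhc, the other anchor, was at 0.19 and -0.14. For Sdhb and Sdhd the OGD libraries lay below the normal ones without overlap. For Sdha, at 96.8, 105, 120 and 119 CPM, both OGD libraries lay above both normal ones in CPM, while its reads overlapped. Its deposited FPKM, at 68.2, 59.8, 66.6 and 97.4, overlapped too, so this order depends on the scaling.

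In complex III no subunit passed 2-fold. The small subunits Uqcrq, Uqcr11, Uqcr10 and Uqcrh were below 0 in both kinds of cell, between -0.30 and -0.57 in control cells and between -0.58 and -0.75 in knockdown cells. Uqcrfs1, the Rieske iron-sulfur protein, was at -0.76 and -0.34. Uqcrc2, a core protein, was above 0 in both, at 0.27 and 0.36.

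Complex IV held 2 of the 3 nuclear subunits that were higher under OGD. Both are the isoforms known from heart and skeletal muscle. Cox7a1 held 12, 46, 59 and 203 reads, 6.27-fold higher (3.33 to 12.8) under OGD in control cells and 4.84-fold (3.50 to 6.82) in knockdown cells. The knockdown library was also the higher one within each culture, 3.50-fold (1.82 to 7.26) in normal culture and 2.70-fold (2.01 to 3.68) under OGD. Cox6a2 held 11, 20, 41 and 59 reads, 4.75-fold higher (2.40 to 10.2) and 3.24-fold higher (1.92 to 5.67) under OGD, with intervals that include 1 for both knockdown comparisons.

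These isoforms stayed minor. Cox7a1 was 0.318%, 0.866%, 2.32% and 6.49% of the reads of Cox7a1 and its widely expressed partner Cox7a2 together, and Cox6a2 was at most 0.752% of Cox6a1 and Cox6a2. The 2 muscle markers with rows held 29, 0, 0 and 5 reads in all, so they were at 0 in 2 libraries in which both isoforms had reads. Cox7a2l, which helps join complexes III and IV into supercomplexes, held 2531, 3981, 3294 and 4730 reads and was above 0 in all 4 comparisons, at 0.73 and 0.38 under OGD. Its pseudogene row Gm6969 held 11.9% to 18.7% as many reads, so part of its reads is uncertain. Without the tissue isoforms, complex IV medians under OGD were -0.28 and -0.34.

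**Figure D3:**
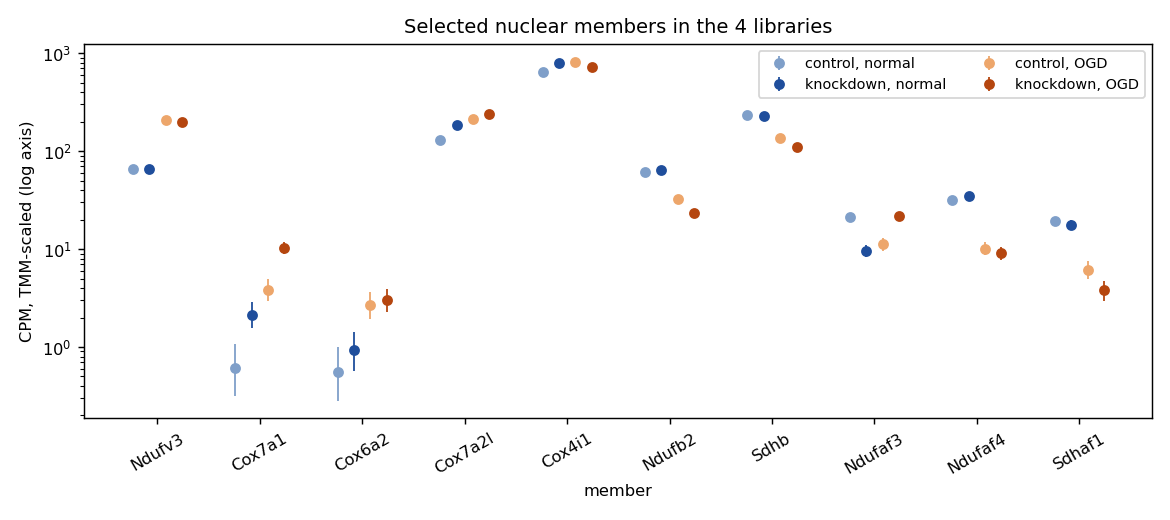
CPM (TMM-scaled, log axis) of 10 nuclear members in the 4 libraries with 95% counting intervals. Ndufv3, Cox7a1 and Cox6a2 are higher in both OGD libraries than in both normal ones, Ndufb2, Sdhb, Ndufaf4 and Sdhaf1 lower, and Ndufaf3 has no common OGD direction.

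Cox4i1, the main form of the subunit whose other isoform is oxygen-regulated, held 12558, 17289, 12615 and 14324 reads, at 0.36 and -0.14 under OGD. Cox5a was at -0.64 and -0.81, Cox5b at -0.36 and -0.32, and Cox8a at -0.83 and -0.33. Ndufa4, first named as a complex I protein and now placed in complex IV, held 5810, 7138, 2661 and 2872 reads, at -0.77 and -1.18. It was the complex IV subunit lower by 2-fold in knockdown cells.

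In ATP synthase 13 of 16 nuclear subunits lay below 0 in control cells and 14 in knockdown cells. Of all genes, 7815 of 14101 and 7042 of 14071 did so. Atp5j, coupling factor 6 in the stalk, held 3479, 3912, 1609 and 1404 reads, 1.70-fold lower (1.60 to 1.80) and 2.54-fold lower (2.39 to 2.70). Atp5k was at -0.93 and -0.97. The catalytic subunit Atp5b, with 39745, 43360, 32030 and 35998 reads, was at 0.04 and -0.13. The 3 genes that encode the same c-ring protein diverged: Atp5g1 was at -0.67 and -1.10, Atp5g3 at -0.51 and -0.68, and Atp5g2 at 0.17 and 0.29. Atp5g2 made up 40.0%, 31.4%, 53.3% and 51.3% of the reads of the 3 genes, with both OGD libraries above both normal ones. It has near-identical pseudogene rows, Gm10175 with 35.7% to 39.4% and Gm10231 with 11.1% to 13.3% of its reads, so its level is less certain.

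Assembly and other factors had an OGD median of -0.42 (SD 0.58) in control cells and -1.04 (SD 1.04) in knockdown cells. In control cells 3 of 13 were lower and 0 higher, a share of lower genes near the 22.2% of all genes. In knockdown cells 7 were lower and 1 higher, against 16.9% and 19.1%. Sdhaf1, needed to insert iron-sulfur clusters into Sdhb, held 380, 381, 94 and 74 reads, 3.17-fold lower (2.52 to 4.02) and 4.69-fold lower (3.65 to 6.10). It shares 1733 exon bases with E130208F15Rik on the opposite strand, a gene that held 168, 136, 17 and 13 reads. Ndufaf4, an early factor of complex I assembly, held 626, 753, 156 and 178 reads, 3.15-fold lower (2.64 to 3.78) and 3.86-fold lower (3.27 to 4.57). For both genes all OGD reads lay below all normal ones. Ndufaf1 (-0.40 and -1.73), Ndufaf2 (-0.31 and -1.39), Ndufaf7 (-1.04 in knockdown cells), Sdhaf3 (-0.42 and -1.74, with 121, 135, 69 and 30 reads) and Sdhaf4 (-0.26 and -1.06) passed 2-fold in knockdown cells and not in control cells, a difference that was not tested. By total counts 5 factors were lower in control cells.

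Most subunits differed little between knockdown and control libraries. Neat1 itself was lower by less than 2-fold in both cultures, and most brain and blood markers differed by 2-fold between the same libraries. In normal culture the median was 0.09 over nuclear and -0.05 over mitochondrial subunits, beside -0.03 over all genes. Cox7a1 was the 1 nuclear subunit higher by 2-fold, and 0 subunits were lower, while 6.25% of all genes were higher and 16.3% lower. Under OGD the nuclear median was -0.12 and the mitochondrial -0.26. By total counts and by the deposited FPKM the nuclear median turned to 0.08 and 0.07, so its direction is not settled. Cox7a1 was again the 1 nuclear subunit higher, and 0 were lower, against 10.7% and 4.23% of all genes.

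Among abundant subunits the knockdown ratios stayed below 2-fold. In normal culture the ends were Ndufa5 of complex I, with 1528 reads in control and 2539 in knockdown cells (0.60), and Cox8a, with 14928 and 11481 (-0.51). Under OGD the lowest nuclear subunit was Uqcrc1, a core protein of complex III, with 3601 and 2457 reads, 1.87-fold lower (1.77 to 1.96). It was lower in normal culture also, with 5392 and 4497 reads, 1.31-fold lower (1.26 to 1.37). Among mitochondrial messages mt-Nd6 was at -0.99 and mt-Atp8 at 0.63 under OGD, against -0.12 and -0.08 in normal culture.

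Of the assembly and other factors, Ndufaf3 was lower by 2-fold with knockdown in normal culture, and under OGD Sdhaf3 (-1.29) was lower and Atp5s (1.23) higher. Ndufaf3, a complex I assembly factor, differed in direction between the cultures. It held 418, 207, 172 and 431 reads, 2.21-fold lower (1.87 to 2.63) with knockdown in normal culture and 1.97-fold higher (1.65 to 2.36) under OGD. Its high libraries were control normal and knockdown OGD, the same 2 that had the most reads of the brain and blood markers (54736 and 8184, against 2037 and 2509), and that held the smallest shares of ribosomal repeats. The part of these in the result was not tested. Atp5s, a factor related to ATP synthase, had the same 2 libraries above the others, with 103, 57, 27 and 94 reads.

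Of other genes of the pathway, carriers and quinone synthesis genes had OGD medians of -0.26 and -0.42. In control cells 5 of 20 were lower and 2 higher, shares near those of all genes (22.2% and 9.36%). In knockdown cells 6 were lower and 1 higher, against 16.9% and 19.1%. Cytochrome c (Cycs) held 3729, 3784, 1628 and 1214 reads, at -0.84 and -1.50. Chchd4, an import factor for intermembrane space proteins, was at -1.41 and -1.80. Among assembly factors of complexes III to V the medians were -0.06 and -0.14. Of 32 past the floor in control cells and 33 in knockdown cells 2 were lower and 2 higher in each, against 22.2% and 16.9% of all genes lower and 9.36% and 19.1% higher. The 2 higher genes were the same in both: the matrix protease Lonp1, with 2348, 2368, 6502 and 7070 reads (1.82 and 1.71), and Higd1a, a hypoxia-induced protein of the inner membrane, with 1674, 1649, 3903 and 3581 reads (1.57 and 1.25).

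Genes that read and maintain the mitochondrial genome had medians of 0.03 and -0.16 under OGD, with 1 of 21 and 7 of 22 lower, against 22.2% and 16.9% of all genes, and 0 and 2 higher, against 9.36% and 19.1%. Polrmt, the mitochondrial RNA polymerase, held 830, 625, 348 and 434 reads, at -0.89 and -0.38, and Tfam, its DNA-binding partner, was at -0.10 and -0.17. Nrf1 and Gabpa, nuclear factors that act on many subunit promoters, were at 0.58 and 0.56 in control cells and at -0.15 and 0.40 in knockdown cells. Of 17 genes for mitochondrial RNA processing and stability, 2 were lower and 1 higher in control cells, and 3 lower and 1 higher in knockdown cells. For lower genes these shares were below and near those of all genes (22.2% and 16.9%), and for higher ones near and below them (9.36% and 19.1%). Lrpprc, which stabilises mitochondrial messages, was at -0.59 and -1.12. Fastkd1, a mitochondrial RNA-binding protein, held 183, 155, 19 and 48 reads, at -2.50 and -1.39.

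Subunits with short transcripts were further below 0 under OGD. Across the 78 nuclear subunits, which share the same libraries and are not independent, Spearman's rho between transcript length and log2 ratio was 0.42 in control and 0.48 in knockdown cells. The median transcript of these subunits was 709 bases, against 2838 over protein-coding genes. The 42 subunits of at most 750 bases had medians of -0.47 and -0.69, and the 11 of 1500 to 2500 bases had 0.18 and -0.12. All protein-coding genes of at most 750 bases with at least 100 reads in a library (397) had medians of -0.24 and -0.46, and those of 1500 to 2500 bases 0.04 and 0.04. The relation did not run across all lengths in control cells, where genes over 4000 bases stood at -0.12 (0.11 in knockdown cells). Over all protein-coding genes rho was -0.018 and 0.12. The share lower by 2-fold was 11.8% in genes of at most 750 bases and 19.4% over 4000 bases in control cells, and 20.4% and 12.0% in knockdown cells. The part of length in the subunits' values was not tested.

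**Figure D4:**
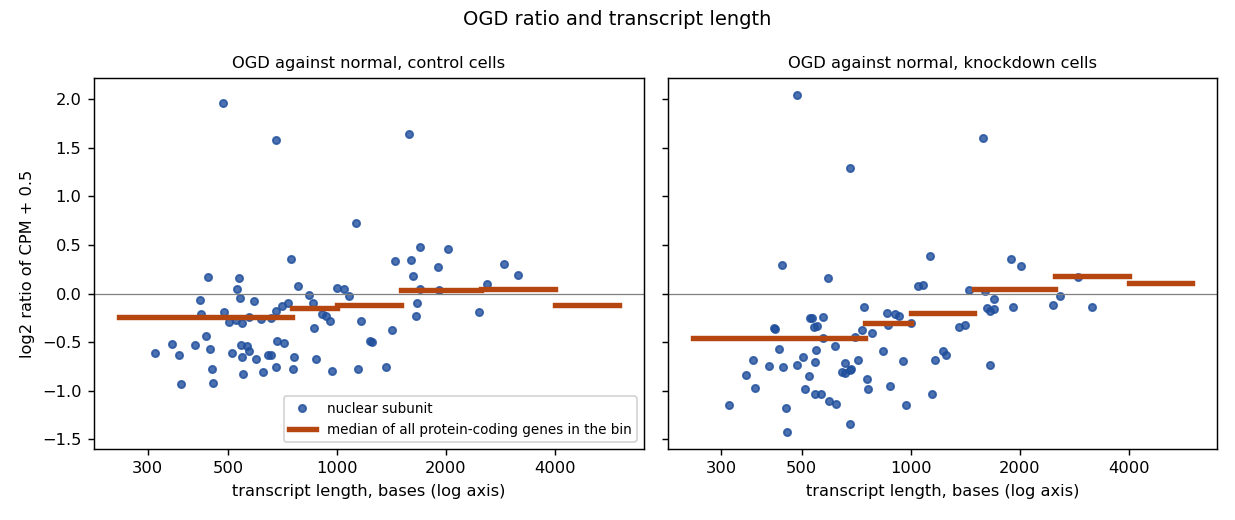
Log2 OGD ratio (y axis) against transcript length (bases, log axis) for the 78 nuclear subunits (points), with the median of all protein-coding genes in each length bin (bars). Subunits of at most 750 bases have medians of -0.47 and -0.69, beside -0.24 and -0.46 for all genes of that length.

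RefSeq promoters (GRCm38.p6, 250 bases before to 50 after the start) matched 66 of the 81 nuclear subunits by symbol, with 71 starts. The NRF1 core GCATGCGC was found on either strand in 14.1% of them, against 2.71% of all 32851 promoters. The ETS core CCGGAAG, the kind of site that Gabpa binds, was in 22.5% against 8.86%. The hypoxia response cores ACGTG and GCGTG were in 22.5% and 53.5%, against 19.6% and 32.4%. Subunit promoters had a median GC content of 57.3%, against 52.7% for all promoters, which bears on the frequency of such letters. The 35 subunits with a GCGTG core had OGD medians of -0.36 and -0.68, and the 29 without one had -0.21 and -0.36. For ACGTG the order was the other way, with medians of -0.09 and -0.35 in the 15 with it and -0.30 and -0.59 in the 49 without. A match is a description of letters and not of binding.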

How the data were processed

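Total RNA of 4 HT22 cultures was sequenced, 1 library per group. Alignment used TopHat2 and mm10, per the submitters' processing notes. The sources used here do not give the counting program, annotation, strand setting or any poly(A) selection. Per the file headers, the authors deposited size-factor scaled counts per gene (a signal) in 4 tables, with numbered sample columns of no stated unit, which were read as deposited FPKM. Whole reads were recovered from the scaled signal (100% of 147282 values at a tolerance of 1e-06), and the 69779 values held in 2 tables were identical. Because these are whole reads, the branch of the plan for counts was used. No count test was run with 1 library per group.

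TMM factors (edgeR 4.0.16, R 4.3.3) were 1.05, 1.03, 0.893 and 1.03. Ratios used 0.5 CPM added and a floor of 20 reads. Intervals are exact (conditional binomial) at 95%, for counting error only. Reads carry no molecular identifiers. Python 3.11.15, pandas 2.3.3, scipy 1.17.1 and matplotlib 3.10.9 were used. Near-identical copies were found with blastn 2.17.0 on GENCODE M21 transcripts (at least 95% identity over 100 bases, and at least 10% of the member's reads). Of 20089 genes 19950 matched GENCODE.

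Members, lists and rules were chosen with earlier results of these data known. Genes named were all mitochondrial messages, members past 2-fold with at least 100 reads, the highest and lowest member of each nuclear complex per comparison, isoform pairs, complex II, Neat1, and up to 3 genes of each pathway list per comparison. Others, such as Cox6a2, Ndufv1, Ndufv2, Lrpprc, Tfam, Nrf1, Gabpa and the further subunits given for a complex, were named for their role or after their values were seen. Alternatives were total counts, median-of-ratios size factors, TMM without mitochondrial and ribosomal repeat rows, 0.1 or 2 CPM in place of 0.5, no floor or 1 of 100 reads, and the FPKM ratio. TMM without the chromosome 1 copies was added after seeing the data. Values of 1 item among the members are not reported here.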

Additional observations from a re-analysis of the deposited data

Results flagged for a closer look

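A gene is given here when its log2 ratios under the same contrast had opposite signs in the 2 settings, each of at least 1.5-fold. With 1 library per group the difference was not tested for any of them. All 3 are assembly or other factors. How many of all genes meet this rule was not counted. By another measure, the OGD ratio in knockdown cells was at least 2-fold above that in control cells in 3144 of 15086 genes. It was at least 2-fold below in 1346. Ndufaf3 stood at -0.90 under OGD in control cells and 1.15 in knockdown cells, and equally at -1.11 for knockdown in normal culture and 0.95 under OGD. Atp5s stood at -1.35 and 0.75 for OGD, and at -0.87 and 1.23 for knockdown, on 27 to 103 reads per library. Ndufaf1 was at 0.63 for knockdown in normal culture and -0.70 under OGD, from 273, 468, 161 and 122 reads. The opposite signs of the OGD pair and of the knockdown pair of a gene are the same 4 values seen from 2 sides.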

How the results depend on the processing

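No paired analysis was possible because each group held 1 library, and for the same reason no library could be left out. Results that did not depend on scaling between libraries are the ratios within a library. Over 9 alternatives 381 of the 414 recomputed medians and counts kept direction and size class. Of the 46 in each, total counts kept 35 and the FPKM ratio 32. A floor of 100 reads and 2 CPM added kept 42 each. The other alternatives moved the ratios little and kept all 46. By total counts the OGD median of mitochondrial messages in control cells passed 2-fold (-1.06), as it did by the FPKM ratio (-1.03). Members lower by 2-fold under OGD in control cells were then 20 and 17, against 9. With 2 CPM added the median of assembly factors under OGD in knockdown cells fell short of 2-fold, at -0.87. Medians that changed sign were all small. For knockdown under OGD they became 0.080 by total counts and 0.074 by FPKM over nuclear subunits, 0.10 and 0.093 in complex I, 0.12 and 0.094 in complex III, 0.12 and 0.13 in complex IV, and 0.051 and 0.038 in complex V. For knockdown in normal culture they became -0.0011 and -0.13 in complex II, -0.0097 and -0.056 in complex III, -0.0010 and -0.078 over assembly factors, and -0.037 by FPKM in complex V. The median difference of OGD ratios over mitochondrial messages, knockdown minus control, was -0.13 and became 0.10 and 0.12. The rest were counts of members past 2-fold. With 2 CPM added or a floor of 100 reads, 0 were higher with knockdown in normal culture, and 1 was higher and 0 lower under OGD. By FPKM 0 were lower in either knockdown comparison. With a floor of 100 reads 1 member was higher under OGD in control cells, against 3. The cause was not tested, except that a higher floor or added CPM removes or shrinks genes with few reads. Genes under 20 reads in both libraries were not compared. Those with few reads in 1 library, such as Cox7a1 and Cox6a2 in control cells, have intervals whose ends lie more than 2-fold apart.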
